A study of Mus musculus with 6 samples.

Results

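Sertoli cell genes for hormone response and cell identity were followed in the testis of mice fed a Western-like diet (WD) or a standard diet (SD). The set was every array probe whose gene symbol was Shbg, Rhox5, Rhox8, Fshr, Wt1, Sox9, Cldn11, Inhbb or Clu. Of the 45281 probes on the array 9 qualified, and they covered 6 of the 9 genes: 3 probes for Fshr, 2 for Sox9 and 1 each for Shbg, Rhox5, Rhox8 and Cldn11. Wt1, Inhbb and Clu were matched to no probe in the annotation used and were not analysed here. Total testis RNA of 6 C57Bl/6 males aged 4 months was hybridised, 1 array per mouse. WD mice 3, 4 and 6 had received the diet labelled high fat, which the study describes as rich in butter and sucrose, and SD mice 1, 2 and 5 a standard chow. The animals carried no transgene or other treatment that the labels name. According to the study, those with the strongest response to the diet were set aside before mice were drawn at random for the arrays, which limits them as a model of the diet. RNA came from whole testis, so fewer cells of a type and less RNA per cell could not be told apart in any value below.

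Sertoli cells are the somatic cells inside the seminiferous tubules. They surround the developing germ cells, nourish them and seal them off behind the blood-testis barrier. They respond to follicle-stimulating hormone (FSH) through its receptor Fshr and to testosterone through the androgen receptor. Shbg encodes the androgen-binding protein that they secrete. Rhox5 and Rhox8 are homeobox genes of the X chromosome that androgens induce in mouse Sertoli cells. Sox9 and Wt1 are transcription factors that set and keep the identity of the cell, Cldn11 is a claudin of its tight junctions, Inhbb is a subunit of inhibin B, and Clu encodes the secreted protein clusterin.

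The promoters of the hormone-response genes are shown because the androgen receptor binds DNA at pairs of a short half-site with the letters AGAACA. The promoters of Fshr and Cldn11 stand beside them. On the other strand the half-site reads TGTTCT. Each sequence is from RefSeq on GRCm38.p6 and runs 5′ to 3′ on the strand of the gene, covering the 250 bases before the annotated start and the 50 after it. They lie at chr11:69617856-69618155 (minus strand), chrX:37754358-37754657 (plus), chr17:89200626-89200925 (minus) and chr3:31149670-31149969 (plus), and capitals mark the half-site wherever either orientation occurred. Of the 6 genes with a probe, these 4 had a RefSeq entry, and Rhox8 and Sox9 had none in the table used.
Shbg: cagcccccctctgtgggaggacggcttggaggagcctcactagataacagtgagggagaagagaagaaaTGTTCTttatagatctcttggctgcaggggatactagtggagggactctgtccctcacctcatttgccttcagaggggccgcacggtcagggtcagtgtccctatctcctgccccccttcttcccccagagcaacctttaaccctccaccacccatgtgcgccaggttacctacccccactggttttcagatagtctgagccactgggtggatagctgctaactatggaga
Rhox5: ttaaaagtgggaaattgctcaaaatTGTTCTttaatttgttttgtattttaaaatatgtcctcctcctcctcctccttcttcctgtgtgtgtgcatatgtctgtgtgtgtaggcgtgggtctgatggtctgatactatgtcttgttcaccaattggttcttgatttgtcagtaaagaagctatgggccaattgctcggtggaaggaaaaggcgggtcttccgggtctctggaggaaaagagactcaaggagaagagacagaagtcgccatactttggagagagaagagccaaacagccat
Fshr: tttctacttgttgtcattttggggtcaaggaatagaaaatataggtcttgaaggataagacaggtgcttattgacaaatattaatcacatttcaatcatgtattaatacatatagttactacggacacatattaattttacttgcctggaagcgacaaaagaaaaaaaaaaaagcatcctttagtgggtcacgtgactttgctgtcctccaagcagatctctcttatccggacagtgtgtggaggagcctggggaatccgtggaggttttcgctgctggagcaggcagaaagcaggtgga
Cldn11: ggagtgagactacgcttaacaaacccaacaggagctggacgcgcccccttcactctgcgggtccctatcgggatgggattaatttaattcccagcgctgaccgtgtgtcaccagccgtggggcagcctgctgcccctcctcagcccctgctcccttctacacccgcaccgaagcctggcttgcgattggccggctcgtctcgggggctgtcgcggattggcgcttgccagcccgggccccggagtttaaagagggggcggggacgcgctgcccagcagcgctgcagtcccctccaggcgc
The half-site occurred once in the Shbg window, with its first base at position -181 from the start, and once in the Rhox5 window, at position -225. It had 0 matches in the Fshr and Cldn11 windows. Of 32851 promoter windows of the same length, 19% held it on either strand, so a single match is common. The letters GATA, bound by GATA factors, were found 5 times in the Shbg window, once in that of Rhox5, 2 times in that of Fshr and once in that of Cldn11, against 57.9% of all windows with a match. The E-box CANNTG, bound by basic helix-loop-helix factors, had 2, 3, 3 and 0 matches in the order Shbg, Rhox5, Fshr and Cldn11 (72.3% of all windows). The nuclear receptor half-site AGGTCA, present in 16.3% of all windows, had 0 matches in any of the 4. So had the cyclic AMP response half-site TGACG, present in 20.8% of them. Both strands were searched and the motifs may overlap. These matches describe letters in a window and do not show that a factor binds there.

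The arrays were similar in quality. Between 19026 and 21309 probes were detected per array (detection p under 0.05 against the negative controls), and the mean correlation of an array with the other 5 lay between 0.984, for WD mouse 3, and 0.987. The arrays of WD mouse 6 and SD mouse 5 were the dimmest of each diet, with median raw intensities of 120.1 and 126.2, against 146.6 to 159.3 in the other WD mice and 152.4 to 172.5 in the other SD mice. Their column names carry no number, unlike those of mice 1 to 4, but their origin as a batch is not labelled. Values are therefore also given among mice 1 to 4 and between mice 6 and 5 where they bear on a result. The Sertoli markers Sox9, Cldn11, Rhox5 and Fshr, which are members themselves, were detected on 6 of 6 arrays. Of markers outside the set, Amhr2 and Trf were detected on 6 of 6 arrays and Gata4 on 3. Amh, a marker of immature Sertoli cells, was detected on 0. Detection in whole testis does not show which cells gave the signal.

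Of the 9 member probes, 8 were detected on at least 3 of the 6 arrays and were tested. All 8 had a higher mean in WD than in SD mice, by 0.03 to 0.56 on the log2 scale, where 49.8% of all 19763 tested probes had. The median difference was 0.20 over the members (0.10 with upper quartile scaling and 0.14 without WD mouse 3). Over all tested probes it was 0.00 (-0.015 and 0.004 under the same 2 settings). None of the differences passed the test. The limma fit gave 0 of 8 member probes and 0 of 19763 probes in all (0%) at an adjusted p under 0.05, with a smallest adjusted p of 0.801 anywhere on the array. At an unadjusted p under 0.05 there were 0 of 8 members, against 1013 of all tested probes (5.13%), of which 506 were higher and 507 lower in WD mice. This 0 depended on the processing and on the mice included. Shbg had such a p in 9 of the 17 alternative fits, Rhox8 in 1 and Fshr in 1, the last without WD mouse 4. The fits for Shbg included those without WD mouse 6 and without mice 5 and 6, but not the fit without WD mouse 3. At 2 member probes, those of Shbg and Rhox8, every WD mouse was above every SD mouse, where 5.17% of all tested probes had such a pattern. WD mouse 3 was the highest of the 6 mice at 6 of the 8 probes, where it was so at 20.2% of all tested probes. Without this mouse 5 of the 8 probes had a higher WD mean.

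**Figure D1:**
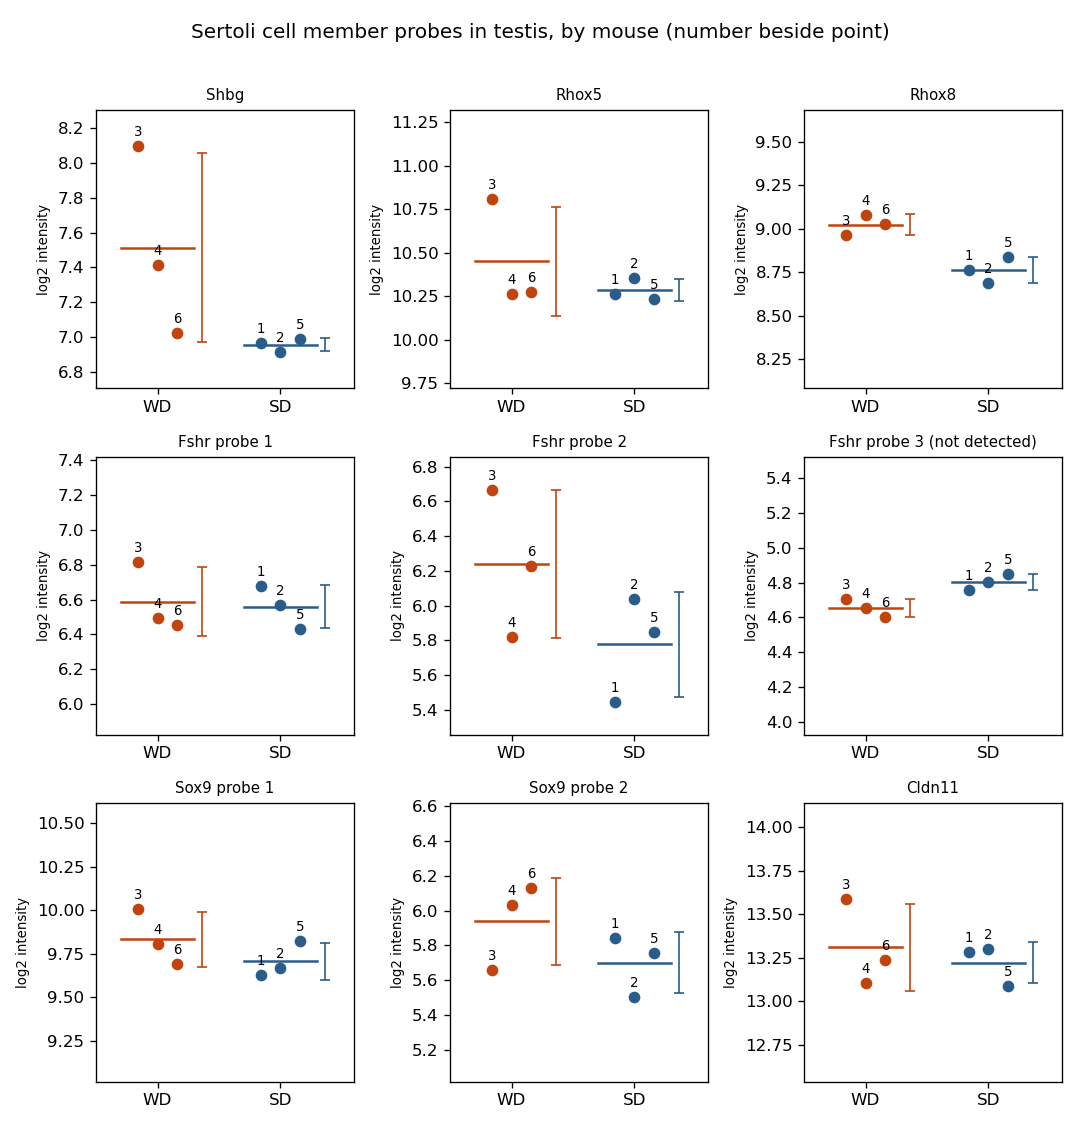
Normalised log2 intensity (vertical axes) of the 9 member probes in each WD (left) and SD (right) mouse, numbered as in the labels, with the mean as a line and the SD as an error bar. WD mouse 3 is the highest point at 6 of the 8 detected probes, and only Shbg and Rhox8 separate the diets with WD above SD. The third Fshr probe was not detected in any mouse.

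Fshr is the receptor through which FSH acts on Sertoli cells. Its brightest probe (ILMN_2932141) was detected on 6 of 6 arrays and measured 6.82, 6.49 and 6.45 in WD mice 3, 4 and 6, against 6.68, 6.57 and 6.43 in SD mice 1, 2 and 5. The diets overlapped fully, with means of 6.59 ± 0.20 in WD and 6.56 ± 0.12 in SD mice (SD, n = 3 each). The difference was 0.03 (SE 0.15, 95% interval -0.32 to 0.38, limma adjusted p = 0.989), and it was -0.08 without WD mouse 3 and -0.03 without SD mouse 5. At the second Fshr probe (ILMN_1228881) the levels were 6.67, 5.82 and 6.23 in WD mice and 5.45, 6.04 and 5.85 in SD mice, also detected on 6 of 6 arrays. WD mouse 3 was highest and SD mouse 1 lowest there, and WD mouse 4 lay below SD mice 2 and 5. This probe gave a difference of 0.46 (SE 0.24, interval -0.09 to 1.02, limma adjusted p = 0.936), larger than that of the brightest probe. It was 0.17 without background correction, 0.25 without WD mouse 3, 0.30 without SD mouse 1 and 0.67 without WD mouse 4. The third probe (ILMN_2736929) was not well above background on any array, with detection p-values of 0.526 to 0.702 in WD and 0.262 to 0.404 in SD mice, and was not tested. Its measured values were 4.71, 4.66 and 4.60 in WD mice and 4.76, 4.80 and 4.85 in SD mice. The 2 tested probes of the receptor therefore had the same sign and unequal size, and both intervals included 0.

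Shbg had the largest difference between the diets among the members. Its probe (ILMN_1227933) measured 8.10, 7.41 and 7.03 in WD mice 3, 4 and 6, against 6.97, 6.91 and 6.99 in SD mice 1, 2 and 5. All 3 WD mice were above all 3 SD mice, but mouse 6 by only 0.04 over SD mouse 5, the highest of them. The mean was 7.51 ± 0.54 in WD mice and 6.96 ± 0.04 in SD mice (SD, n = 3 each), so nearly all of the spread lay within the WD diet. The WD values spanned 1.07 and the SD values 0.08 on the log2 scale. The WD to SD ratio was 1.47-fold, with a 95% interval of 0.987 to 2.19. The log2 difference of 0.56 (SE 0.25) had an adjusted p of 0.936 in limma, and the exact two-sided permutation test gave p = 0.1, the smallest that 3 against 3 mice allow. The difference was 0.82 among mice 1 to 4 and 0.04 between mouse 6 and mouse 5, the dimmest pair of arrays. Without WD mouse 3 it was 0.26. The SD over the 6 mice at the Shbg probe exceeded that of 95.1% of all tested probes. Raw intensities, before any scaling, were 418.3, 283.5 and 197.2 in WD mice and 285.8, 254.8 and 205 in SD mice, so the separation of the diets was not seen before arrays were put on 1 scale.

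Rhox8 differed from Shbg in how the mice were spread. Its probe (ILMN_2784392) measured 8.96, 9.08 and 9.03 in WD mice 3, 4 and 6, against 8.76, 8.69 and 8.84 in SD mice 1, 2 and 5. The 3 WD mice lay close together and above the 3 SD mice, and mouse 4, not mouse 3, was the highest. The mean was 9.03 ± 0.06 in WD and 8.76 ± 0.08 in SD mice (SD, n = 3 each), a ratio of 1.20-fold (95% interval 0.985 to 1.46). The log2 difference of 0.26 (SE 0.12) had an adjusted p of 0.936 in limma and p = 0.1 in the exact two-sided permutation test. It was 0.29 without WD mouse 3, 0.30 among mice 1 to 4 and 0.19 between mouse 6 and mouse 5. Over the 17 alternative fits its difference lay between 0.18 and 0.30, the narrowest range of the 8 tested probes. Its raw intensities were 650.1, 650.5 and 504.2 in WD mice and 663.8, 593.5 and 476.8 in SD mice, which overlapped.

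Rhox5, the founding member of the same homeobox family, showed a single high mouse. The levels (ILMN_2762935) were 10.81, 10.26 and 10.28 in WD mice 3, 4 and 6, against 10.27, 10.36 and 10.23 in SD mice 1, 2 and 5. WD mice 4 and 6 lay within the range of the SD mice. The means were 10.45 ± 0.31 in WD and 10.29 ± 0.06 in SD mice (SD, n = 3 each), and the difference of 0.17 (SE 0.17, interval -0.23 to 0.57, limma adjusted p = 0.965) became -0.01 without WD mouse 3. The exact two-sided permutation p was 0.6. Relative to the SD mean, WD mouse 3 was 0.53 higher for Rhox5 and 0.20 higher for Rhox8, while WD mouse 4 was -0.02 for Rhox5 and 0.32 for Rhox8.

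Sox9, the transcription factor that directs Sertoli cell fate, was measured by 2 probes. The brighter (ILMN_2778151) gave 10.00, 9.80 and 9.69 in WD mice and 9.63, 9.67 and 9.82 in SD mice. WD mouse 3 was highest and SD mouse 5 second, and the diets overlapped. The means were 9.83 ± 0.16 in WD and 9.71 ± 0.11 in SD mice (SD, n = 3 each), with a difference of 0.13 (SE 0.14, interval -0.19 to 0.45, limma adjusted p = 0.965). It was 0.04 without WD mouse 3 and 0.06 with upper quartile scaling. Between the dim arrays the sign was opposite, -0.13 for mouse 6 minus mouse 5, against 0.26 among mice 1 to 4. The dimmer probe (ILMN_3007428) measured 5.66, 6.03 and 6.13 in WD mice and 5.85, 5.51 and 5.75 in SD mice. Its order of mice was different, with WD mouse 6 highest and WD mouse 3 below SD mice 1 and 5. The difference at this dimmer probe was 0.24 (SE 0.17, interval -0.15 to 0.63, limma adjusted p = 0.938). It was 0.08 without background correction, 0.38 without WD mouse 3, 0.14 without SD mouse 2 and 0.14 without WD mouse 6.

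Cldn11, which forms the tight-junction strands of the blood-testis barrier, measured 13.59, 13.10 and 13.24 in WD mice 3, 4 and 6, against 13.28, 13.30 and 13.09 in SD mice 1, 2 and 5 (ILMN_1246139). WD mouse 3 was the highest, and WD mice 4 and 6 lay inside the range of the SD mice. The means were 13.31 ± 0.25 in WD and 13.22 ± 0.12 in SD mice (SD, n = 3 each). The difference of 0.09 (SE 0.16, interval -0.29 to 0.46, limma adjusted p = 0.972) was -0.05 without WD mouse 3.

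**Figure D2:**
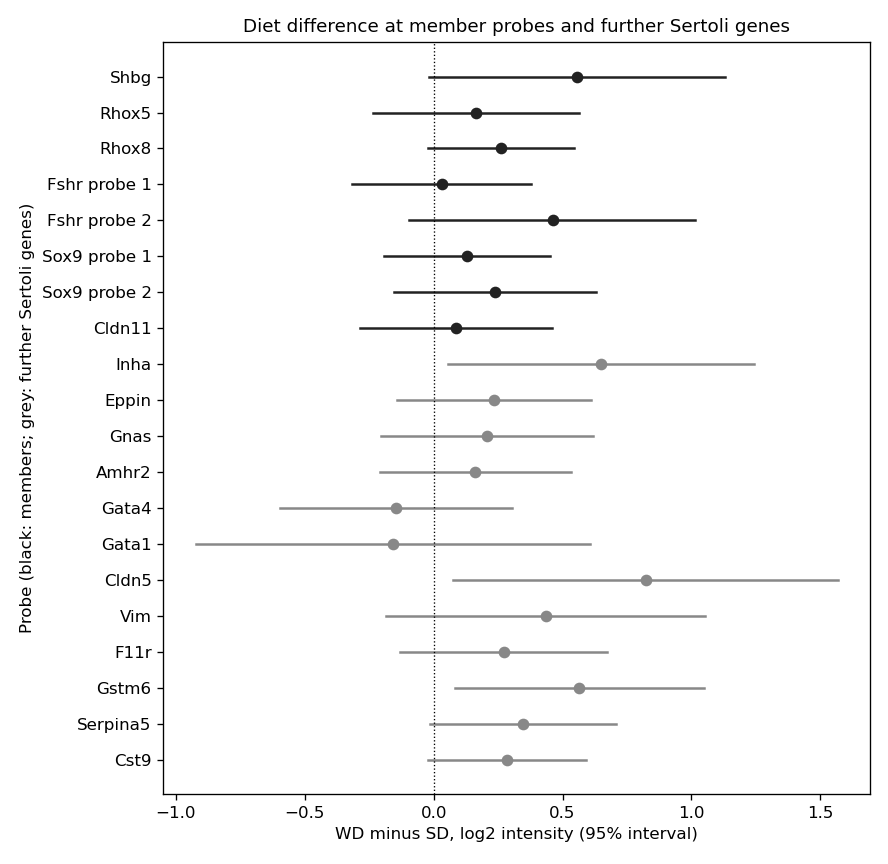
WD minus SD difference in log2 intensity (horizontal axis) with its 95% limma interval, for the 8 tested member probes (black) and 12 further Sertoli cell genes (grey). All 8 member points lie above 0 and all 8 member intervals include 0. The intervals of Inha, Cldn5 and Gstm6 lie above 0 before adjustment.

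The members did not move together in every mouse. Over the 6 genes, each by its brightest probe, WD mice 3, 4 and 6 deviated from the SD mean by a median of 0.33, 0.04 and 0.00, and SD mice 1, 2 and 5 by 0.00, -0.02 and -0.01. WD mouse 3 was the highest mouse for 5 of the 6 genes, where it was so for 23.2% of 11264 tested genes. All 15 pairs of genes were compared across the 6 mice. Pearson's r was positive for 13 of 15 pairs, with a median of 0.67 and a range of -0.16 to 0.92. The closest pair was Rhox5 and Cldn11 (r = 0.92, exact permutation p = 0.00556, adjusted p = 0.0833 over 15 pairs; Spearman's rho = 0.94, exact p = 0.0167, adjusted p = 0.25). Fshr and Cldn11 followed (r = 0.90, exact permutation p = 0.0139, adjusted p = 0.104; rho = 0.89, exact p = 0.0333, adjusted p = 0.25). Shbg and Sox9 had r = 0.89 (exact permutation p = 0.0375, adjusted p = 0.172) with rho = 0.77 (exact p = 0.103, adjusted p = 0.385), and Rhox5 and Fshr r = 0.82 (exact permutation p = 0.0458, adjusted p = 0.172) with rho = 0.71 (exact p = 0.136, adjusted p = 0.408). The number of pairs that passed after adjustment was 0 by either measure, against 4 by r and 2 by rho at an unadjusted exact permutation p under 0.05.

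Rhox8 stood outside the group of Rhox5, Fshr and Cldn11, with r of 0.13, -0.16 and -0.08 to these genes. Its highest r was 0.50, with Shbg, and their rho was 0.83 (exact permutation p = 0.0583, adjusted p = 0.292). At both probes every WD mouse was above every SD mouse, which alone makes a rho over the 6 mice positive. As deviations from the diet means the r of Shbg and Rhox8 was -0.38. Shbg and Rhox5 had r = 0.88 but rho = 0.14, and r = -0.32 without WD mouse 3, so that relation rested on this mouse. Without the mice farthest from the median of the first gene of each pair, r was 0.68 for Rhox5 and Cldn11, 0.68 for Fshr and Cldn11, 0.33 for Shbg and Sox9, 0.33 for Rhox5 and Fshr, 0.95 for Shbg and Rhox8, and -0.73 for Shbg and Rhox5. Without WD mouse 3 alone the median r over the 15 pairs was -0.32 and 6 of 15 were positive. Among the pairs with r above 0.8, those of Rhox5 and Cldn11 (0.72 without WD mouse 3), Shbg and Sox9 (0.57) and Fshr and Cldn11 (0.70) kept a positive r above 0.5. Of all tested probes, 1.31% had a higher r with Rhox5 than Cldn11 had, and 2.40% a higher r with Shbg than Sox9 had. Counted from the other gene of each pair, Cldn11 and Sox9, the shares were smaller. These pairs therefore ranked high among all tested probes, but other probes ranked above them. Values of r over 4 or 5 mice are descriptions without a test, and the 2 dimmest arrays are too few for one of their own.

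**Figure D3:**
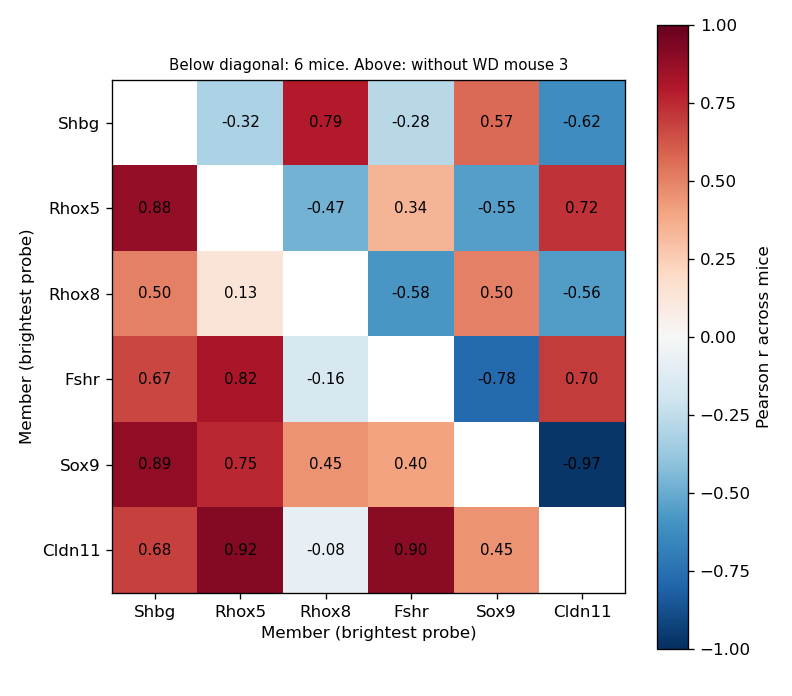
Pearson's r between the brightest probes of the 6 measured genes, over the 6 mice below the diagonal and without WD mouse 3 above it. Below the diagonal 13 of 15 values are positive, and above it 6 of 15 are.

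The transcripts with a profile most like each member were found by the highest r over the 6 mice among probes of 1 gene detected on all arrays. For Shbg these were Gstm6, a glutathione transferase (r = 0.9991), Osr2, a zinc finger transcription factor (0.9976), and Msrb2, a methionine sulfoxide reductase (0.9952). The Gstm6 probe measured 10.15, 9.75 and 9.53 in WD mice 3, 4 and 6, against 9.46, 9.44 and 9.48 in SD mice 1, 2 and 5. It had the same stepwise order of the WD mice as Shbg and the same narrow range of SD mice. For Rhox5 they were Prelp, an extracellular matrix protein (0.9983), Fam205c (0.9971) and Hnrnpa1, an RNA-binding protein (0.9916). For Rhox8 they were Ubxn1 (0.9893), Rnf4, a ubiquitin ligase (0.9889), and Myh11, the smooth muscle myosin that marks peritubular cells (0.9876). Myh11 measured 6.92, 7.21 and 7.23 in WD mice against 6.45, 6.21 and 6.72 in SD mice, again without overlap and with mouse 3 the lowest of the WD mice. For Fshr they were Ecm1, an extracellular matrix protein (0.9906), Rnps1, a splicing factor (0.9902), and Cebpb, a transcription factor (0.9866). For Sox9 they were Atp6v0a1, a proton pump subunit (0.9900), Psmb2, a proteasome subunit (0.9812), and Syvn1, a ubiquitin ligase (0.9800). For Cldn11 they were Kif1a, a kinesin (0.9866), Usp16, a deubiquitinating enzyme (0.9853), and Psme1, a proteasome activator subunit (0.9833). Each is the best of 13950 or 13951 probes, so these values describe likeness only, and 0 of the 18 genes is itself a member.

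**Figure D4:**
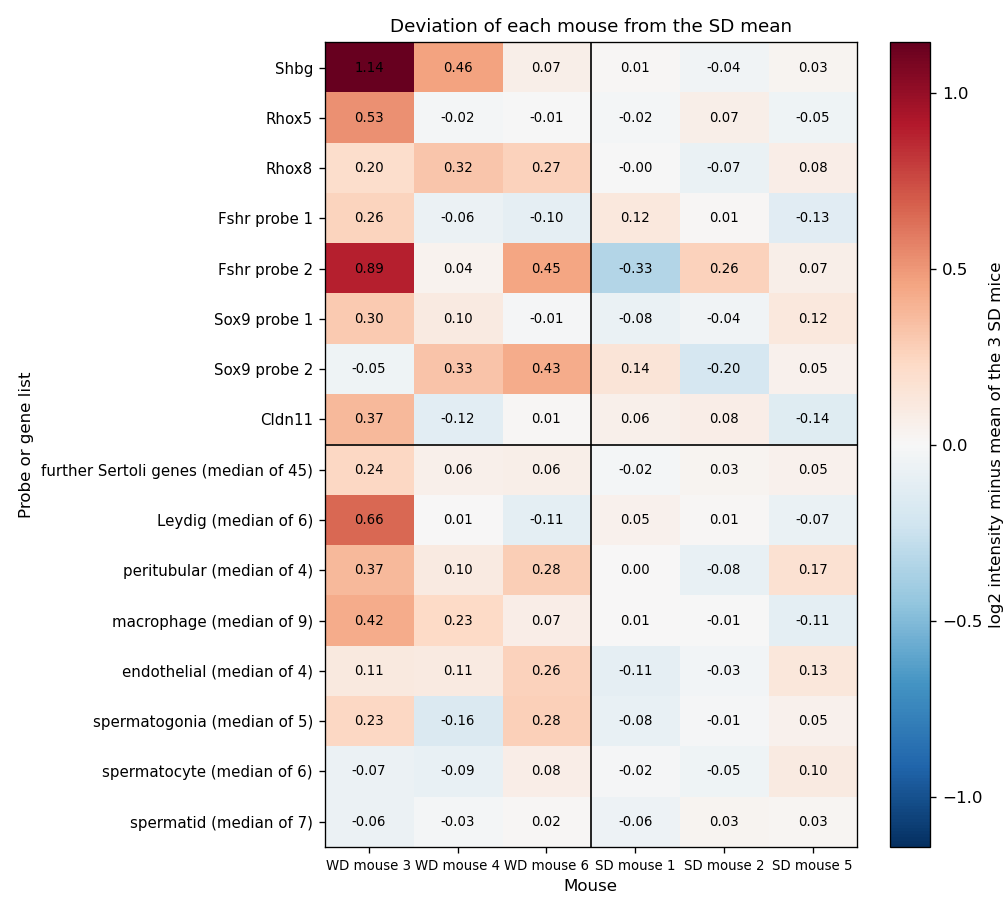
Log2 intensity minus the mean of the SD mice in each WD mouse (left 3 columns) and SD mouse (right 3 columns), for the 8 tested member probes and, as medians, for lists of further Sertoli genes and of markers of other testis cells. WD mouse 3 is 1.14 above the SD mean for Shbg, and its Leydig marker median is 0.66.

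Beyond the members, 71 further genes known for their part in Sertoli cells were taken as 4 lists, of which 64 had a probe and 45 were tested, each by its brightest tested probe. Some, such as Ldha, are also expressed by other testis cells. Of these 45, 34 had a higher and 11 a lower mean in WD mice, where 51.7% of 11264 tested genes had a higher one, and the median difference was 0.10, against 0.01 over all genes. The count was 32 without WD mouse 3, 27 with median scaling of the arrays and 29 with upper quartile scaling. The median was 0.06, 0.05 and 0.04 under the same settings and 0.18 without WD mouse 4. Over all tested probes it was 0.004, -0.048 and -0.015 under the same settings and -0.002 without WD mouse 4. The limma fit gave 0 of 45 at an adjusted p under 0.05 and 3 of 45 at an unadjusted p under 0.05, where 4.55% of all genes had the latter. WD mouse 3 was the highest for 22 of the 45 (23.2% of all genes), with a median deviation of 0.24, against 0.06 in each of WD mice 4 and 6. Among the SD mice 1, 2 and 5 it was -0.02, 0.03 and 0.05.

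Androgen and FSH signalling was represented by 13 tested genes of 20, of which 10 had a higher and 3 a lower WD mean (median 0.04). Inha, the alpha subunit of the inhibins that Sertoli cells secrete under FSH, was higher in all WD mice, with 8.57, 8.31 and 8.35 against 7.16, 7.90 and 8.23 in SD mice. The difference of 0.65 (SE 0.26, limma adjusted p = 0.936, exact permutation p = 0.1) came with a wide range among the SD mice, of which mouse 1 was the lowest. Eppin, a protease inhibitor, gave 0.23 (SE 0.16), and its other probes 0.27 and 0.37. Gnas, the G protein subunit that links Fshr to cyclic AMP, gave 0.21 (SE 0.18) and 0.38 at its other tested probe. Only 2 of its 10 probes were tested. Inhba, the other beta subunit of the inhibins in the list, was detected in no mouse.

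The list of transcription factors and related identity genes had a negative median, -0.12, with 2 of 6 tested genes of 13 higher in WD and 4 lower. Gata4 and Gata1, both zinc finger factors, gave -0.15 (SE 0.20) and -0.16 (SE 0.33). The probes of Amhr2, the receptor of anti-Müllerian hormone, disagreed, with 0.16 (SE 0.16) at the brightest and 0.54 (SE 0.18) and -0.21 (SE 0.13) at the others. The 4 genes with a lower WD mean, Gata4, Gata1, Nr0b1 and Sox8, were near background, detected on 3, 4, 4 and 5 of the 6 arrays, and Gata1 on 1 WD and 3 SD arrays. Amhr2 was the only gene of the list detected on all 6. Amh, Nr2f2, Lhx9 and Emx2 were not detected in any mouse.

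Junction and cytoskeleton genes were higher in WD for 9 of 10 tested of 15 (median 0.15), with 4 highest in WD mouse 3. Cldn5, a claudin of Sertoli cells that endothelial cells also express, measured 7.31, 6.76 and 6.93 in WD mice and 5.44, 6.82 and 6.28 in SD mice. SD mouse 1 was far below the other 5 mice, the diets overlapped, and the difference was 0.82 (SE 0.33, limma adjusted p = 0.925). Vim, the intermediate filament protein vimentin, gave 0.43 (SE 0.27) and F11r, a junctional adhesion molecule, 0.27 (SE 0.17).

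Secreted and support genes were higher in WD for 13 of 16 tested of 23 (median 0.17), and WD mouse 3 was highest for 10 of them, with a median deviation of 0.48. Gstm6 had 10.44, 9.95 and 9.60 in WD mice and 9.52, 9.43 and 9.35 in SD mice at its brightest probe, a difference of 0.57 (SE 0.21, limma adjusted p = 0.905), and 0.35 and 0.32 at its other probes. Probes of this family may also bind near-identical relatives, so the gene is uncertain. Serpina5, a serine protease inhibitor, gave 0.35 (SE 0.16) and 0.50 at its other probe. Cst9, which encodes the cystatin testatin, had 13.41, 13.20 and 13.40 in WD mice and 12.93, 13.09 and 13.14 in SD mice, with no overlap and a difference of 0.29 (SE 0.13, limma adjusted p = 0.936). WD mice 3 and 6 were level there, with mouse 4 below them.

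**Figure D5:**
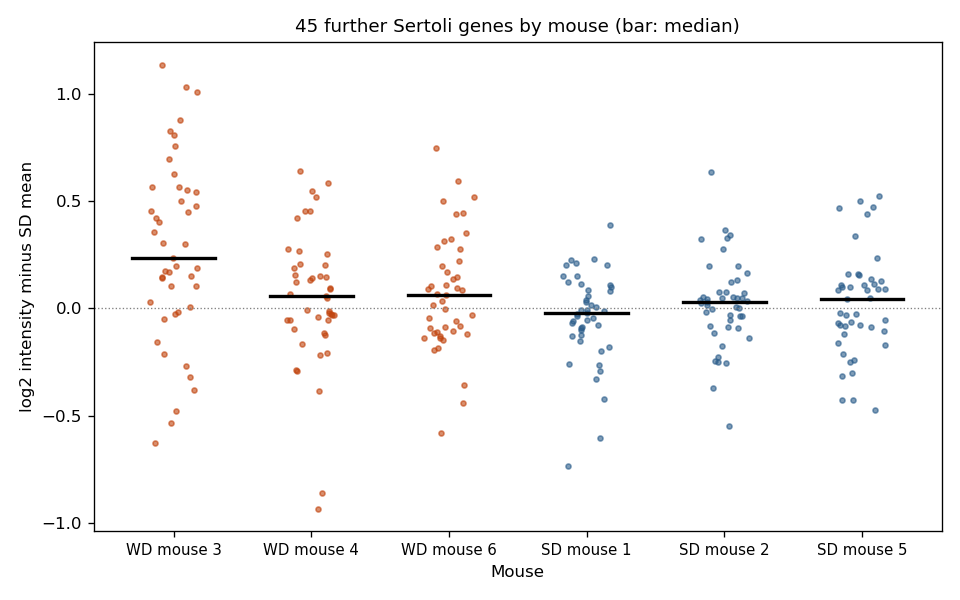
Log2 intensity minus the SD mean (vertical axis) of 45 further Sertoli genes, 1 point per gene, in each WD mouse (left) and SD mouse (right), with the median as a bar. The median is 0.24 in WD mouse 3 and between -0.02 and 0.06 in the other 5 mice.

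Markers of other testis cells were read in the same arrays, because some of them moved with the members in WD mouse 3. Leydig cells make testosterone, and 6 of their 8 markers were tested, with 4 higher and 2 lower in WD (median 0.11). By the median of these markers, WD mice 3, 4 and 6 deviated by 0.66, 0.01 and -0.11, and SD mice 1, 2 and 5 by 0.05, 0.01 and -0.07. Their summed normalised intensity was 44135 to 59364 in WD and 41252 to 47672 in SD mice. Macrophage markers were higher in WD for 8 of 9 tested of 12 (median 0.21), with deviations of 0.42, 0.23 and 0.07 in WD mice 3, 4 and 6 and sums of 8839 to 9826 in WD and 7905 to 8980 in SD mice. These followed the order of Shbg among the WD mice. Peritubular markers, 4 tested of 6, had deviations of 0.37, 0.10 and 0.28, with sums of 12945 to 13488 in WD and 12583 to 13503 in SD mice, while Tagln and Cnn1 were not detected. Endothelial markers, 4 tested of 6 with Kdr not detected, had deviations of 0.11, 0.11 and 0.26 and sums of 285 to 292 in WD and 237 to 277 in SD mice. Red blood cell markers, 3 tested of 4, had a median difference of 0.14 and sums of 885 to 989 in WD and 765 to 855 in SD mice. The sums of both lists did not overlap between the diets, but how often sums over such lists do so was not computed. Either list had 0 genes at a limma adjusted p under 0.05. Spermatogonial markers, 5 tested of 7, were higher in WD for 4 (median 0.04), with deviations of 0.23, -0.16 and 0.28 in WD mice 3, 4 and 6, against -0.08, -0.01 and 0.05 in SD mice 1, 2 and 5, and sums of 1340 to 1728 in WD and 1344 to 1563 in SD mice. Markers of later germ cells had medians near 0, with a difference of -0.02 for 6 tested spermatocyte genes of 7 (sums of 133543 to 143961 in WD and 133690 to 141300 in SD mice) and 0.00 for 7 tested spermatid genes of 8 (165490 to 169247 in WD and 167574 to 175706 in SD mice). Epididymal markers, which would come from attached tissue, were low, with Lcn5, Adam7 and Spink12 not detected and sums of 98 to 108 in WD and 72 to 123 in SD mice over the 2 tested. Among the members, the summed intensity was 11724 to 16036 in WD and 11486 to 12837 in SD mice. The part of other cell types, and of the dim arrays, in the members' differences was not tested.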

How the data were processed

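Testis RNA of 3 WD and 3 SD mice was measured on Illumina MouseWG-6 v2.0 arrays, and groups were taken from the sample titles. The authors deposited linear intensity values of 45281 probes, exported from GenomeStudio (version not given in the sources used here) with neither background subtraction nor scaling. A deposited detection score per array, headed as a p-value, rises with intensity, so 1 minus this score was taken as the detection p. The log2 table of the authors equals log2 intensity minus each array's upper quartile and a constant per probe of unknown origin, to within an SD of 0.000152, and served as an alternative. Their medians were -0.01, 0.00 and 0.01 in WD mice 3, 4 and 6 and -0.02, -0.06 and 0.00 in SD mice 1, 2 and 5.

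Intensities were corrected and quantile normalised with neqc of limma 3.58.1 (R 4.3.3, offset 16), so a fold of a dim probe is understated. Probes detected on at least 3 arrays were tested, WD minus SD, with lmFit and eBayes and Benjamini-Hochberg adjustment over 19763 probes, with a threshold of 0.05. The limma p-values and SEs rest on the spread between these mice, which eBayes draws toward that of all tested probes. An SE can therefore lie above or below what a probe's own spread gives, and 1 variance per probe served both diets. The number of arrays limits the precision. Correlations used exact permutation of 720 pairings. Of the probes, 34885 had 1 gene symbol, 18 several and 10378 none in the platform annotation used. The files name no genome build. The members, lists and tests were chosen with earlier results of these data known. Named genes were all members, the 3 genes with the highest r to each, and per further list the 3 genes with the smallest unadjusted p; Inhba, Nr0b1, Sox8 and undetected genes were named in addition, after their values were seen. Alternatives changed background correction, scaling, the filter, the variance model, a block for the 2 dimmest arrays and the mice included.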

Additional observations from a re-analysis of the deposited data

How the results depend on the processing

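Under 17 alternatives the limma fit called 0 probes, and adjusted p-values of member probes ranged over 0.542 to 0.9997. The direction held in 132 of 136 values of member probes. Changes of the filter, the variance trend and the block of mice 5 and 6 left every member difference as it was. Their values could not turn in sign and say nothing on steadiness. The deposited log2 values gave the same differences as upper quartile scaling, so that result was counted again. Leaving out 1 mouse in turn gave 5 to 8 member probes higher in WD, with 5 without WD mouse 3, a count added after seeing the data. In these fits Cldn11 ranged from -0.053 to 0.19, Rhox5 from -0.014 to 0.259 and the brightest Fshr probe from -0.083 to 0.097, the negative values being without WD mouse 3 and, for Fshr, also -0.034 without SD mouse 5. Over all alternatives Shbg ranged from 0.26 to 0.82 and Rhox8 from 0.18 to 0.30, the second Fshr probe from 0.17 to 0.67, and the Sox9 probes from 0.04 to 0.26 and 0.08 to 0.38. Of 75 correlation values under alternatives, 13 turned in sign. These alternatives did not include leaving out WD mouse 3 alone, where 6 of 15 pairs had a positive r. The counts for differences and correlations therefore cover unlike settings. As deviations from the diet means, r was -0.38 for Shbg and Rhox8, -0.70 for Rhox5 and Rhox8 and -0.03 for Rhox8 and Sox9, and with the authors' deposited log2 values it was -0.12 for Rhox5 and Rhox8. With the mean of all detected probes of a gene, 2 pairs passed the adjusted exact permutation test. For Rhox8 with Sox9 r was 0.96 (adjusted p = 0.0208). That mean includes the dimmer Sox9 probe, whose detection p reached 0.0438 in SD mouse 2. With the brightest Sox9 probe alone r was 0.45. Rhox5 and Cldn11 have 1 probe each, so their r of 0.92 could not change. Their adjusted p went from 0.0833 to 0.0417 only because the p of Rhox8 with Sox9 ranked ahead of theirs. Rhox8 with Fshr gave 0.26 and Sox9 with Cldn11 -0.17. Without the 2 farthest mice r was -0.73 for Shbg and Rhox5, -0.55 for Shbg and Fshr, -0.48 for Shbg and Cldn11, -0.65 for Rhox5 and Sox9, 0.33 for Rhox8 and Cldn11, -0.61 for Fshr and Sox9 and -0.99 for Sox9 and Cldn11. The cause of the changes in sign was not tested. With the arrays of mice 5 and 6 as a block, 1264 probes had an unadjusted p under 0.05 (1013 without it), Shbg among them, and the smallest adjusted p over all probes was 0.655. No paired analysis was made, because no mouse number in the sample titles occurs in both diets and no label names a pair. The column names of SD mouse 2 and WD mouse 4 share a number that is not described as a pairing.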
